A study of Rattus norvegicus with 11 samples.

Results

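WBCs taken at the later sampling of rats with collagen-induced arthritis (CIA) were compared with WBCs of normal healthy controls. At the later sampling, on about day 14, the study's PCR had found the expression of Nampt back at the level of healthy animals, and these samples are called Nampt+. The comparison used 7 of the 11 sequenced samples, 4 Nampt+ samples from CIA rats 1 to 4 and 3 samples from normal rats. All were male Wistar rats, 7 weeks old at the start. CIA was induced by bovine type II collagen emulsified in incomplete Freund's adjuvant (IFA-CII), injected at a hind paw and boosted on day 7. No adjuvant injection is stated for the healthy controls. The other 4 samples came from the same CIA rats on about day 8 and are called Nampt++. Their values are given beside some results and were not tested here. Expression is given as FPKM, the fragments of a gene scaled by its length and by the size of the library. The genes tested were those whose FPKM averaged at least 1 in these 7 samples, 11269 of the 32623 rows of the table. On either side of this limit lay LOC108348302, at a mean of 1.0004, and Crybg3, at 0.9993.

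In CIA, immunization with a joint collagen raises antibodies and T cells against the animal's own cartilage. B cells and plasma cells make these antibodies, IgG among them, and immune complexes act on neutrophils, monocytes and mast cells through Fc receptors, whose signal passes through the kinase Syk. Circulating monocytes can become the osteoclasts that erode bone, and NK cells and cytotoxic T cells kill through granzymes and perforin. Nampt makes the NAD precursor nicotinamide mononucleotide, and Tpi1 is an enzyme of glycolysis.

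Red blood cells had been lysed before extraction, but haemoglobin transcripts took 16.2% to 30.9% of the counts in the controls and 14.8% to 42.8% in the Nampt+ samples. Total counts lay between 69413285 and 85819418. A protocol among the labels speaks of retinas, while the summed FPKM in each of the 7 samples was at least 426 for T cell markers and 2411 for neutrophil markers. Some libraries stood apart. Normal 1 and Normal 2 differed from all 9 other samples in the share that Rpl30 and Hba-a3 held of the summed FPKM of rows of like description. Their level of Egr1 also stood apart, and Nampt+ 2 and Normal 2 had low T cell markers. Where a call rests on 1 of these controls or on both, its value without them, or the loss of the call, is given beside it, or it is said that the gene then lay below the filter. Where both Normal 1 and Normal 2 are left out, 1 control remains, which is then assumed to vary like the Nampt+ samples.

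Few genes separated the Nampt+ samples from the controls. Of the 11269 genes, 97.9% had a fitted difference of less than 2-fold, and the median log2 fold difference was -0.0027. Calls were made at the thresholds of the study, a more than 2-fold difference between the mean FPKMs of the groups in either direction together with an unadjusted p under 0.05, here from edgeR's quasi-likelihood test. By this rule 56 genes were called, 0.497% of those tested, with 24 higher in Nampt+ samples (0.213%) and 32 lower (0.284%). The 4 Nampt+ and the 3 control values did not overlap in 50 genes (0.444%), of which 15 were also called. By chance alone a gene is separated in a given direction in 1 of 35 arrangements, a rate of 0.0286, which is above the share seen here. Absence of overlap in a gene is therefore no evidence of a difference by itself. An adjusted p under 0.05 was reached by 0 genes in edgeR, and by 4 in DESeq2 and 2 in limma. In edgeR 98 genes (0.870%) had an unadjusted p under 0.05, which chance alone gives in about 1 of 20 genes. The smallest adjusted p in edgeR was 0.203, for LOC103689986. For every other gene it was 1.00, so each call below rests on its unadjusted p and its fold. The spread inside a group was wide beside the differences. The median over genes of the SD of log2(FPKM + 1) was 0.44 in the controls and 0.50 in the Nampt+ samples, and the median absolute difference between the group means was 0.11. In bulk RNA of this kind, fewer cells of a type and less RNA per cell cannot be told apart.

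**Figure D1:**
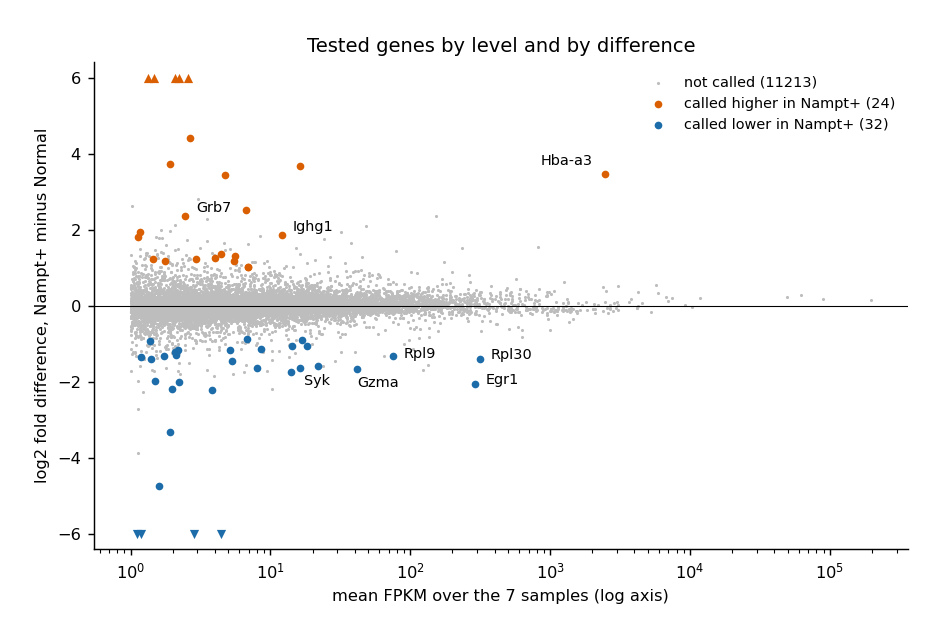
Mean FPKM over the 7 samples (log axis) against the log2 fold difference, Nampt+ minus Normal, for the 11269 tested genes. Grey dots are genes not called, orange and blue are the 24 genes called higher and the 32 called lower, and triangles are called genes beyond 6 on the vertical axis. Most called genes lie at low FPKM, and 13 of the 56 have a mean of at least 10.

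At a mean FPKM of 10 or more, 5 genes were called without overlap between the groups, and of these only Ighg1 was higher in Nampt+ samples. It encodes the constant region of an IgG heavy chain (ENSRNOG00000030332, chr6:139140679-139142218, positions here and below as in the table, whose build is not given in the sources used here). Its FPKM was 6.83, 3.02 and 5.73 in the controls and 30.1, 15.4, 12.7 and 10.4 in the Nampt+ samples. Every Nampt+ value stood above every control. The log2 fold difference was 1.87 (SE 0.49, adjusted p = 1.00 in edgeR). It ranged from 1.58 to 2.14 when single samples were removed and was called in all 7 of these fits, and it was 2.04 and still called without Normal 1 and Normal 2. In the Nampt++ samples of the same rats the FPKM was 16.1, 22, 14.9 and 25.7.

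Other immunoglobulin genes were called in both directions. Ighm, the constant region of IgM, was measured at 261, 123 and 515 in the controls and 261, 154, 308 and 215 in the Nampt+ samples (log2 fold difference -0.21, not called). Jchain, which joins IgM and IgA into polymers, was at 187, 73.1 and 247 in the controls and 159.8, 143, 271 and 175 in the Nampt+ samples (log2 fold difference 0.28, not called). Of 83 tested genes annotated in GO with antigen binding, a list added after the values were seen, 2 were called higher, 3 lower and 78 not (6.02% called, against 0.497% of all tested genes), and the median log2 fold difference was 0.07. The second one called higher was AABR07065883, at 3.67, 3.97 and 5.22 in the controls and 6.64, 4.62, 14.7 and 9.96 in the Nampt+ samples (log2 fold difference 1.02, not called without Normal 1 or Nampt+ 3). Those called lower were AABR07060963, at 3.98, 3.78 and 14 in the controls and 0.356, 1.58, 2.09 and 1.07 in the Nampt+ samples (log2 fold difference -2.21, not called without Normal 3), and AABR07065776 and AABR07065778, with log2 fold differences of -0.91 and -0.88, called in 2 and 1 of 7 leave-one-out fits. In all 3 of them Normal 3 was the highest sample. Immunoglobulin genes share much sequence, and how reads that matched several of them were counted is not stated. The 8 tested plasma cell markers had a median of 0.05 and the 10 B cell markers of -0.20, with 0 called in each list by edgeR and 0 at an unadjusted p under 0.05. Summed B cell markers were also highest in Normal 3, at 872 against 181 to 446 in the other 6 samples, and their part in these calls was not tested.

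Syk, the tyrosine kinase that carries signals of Fc and B cell receptors (ENSRNOG00000012160, chr17:12614311-12669573), was called lower in Nampt+ samples. Its FPKM was 43.8, 41.5 and 16.6 in the controls and 10.4, 6.38, 15 and 18.6 in the Nampt+ samples. Normal 1 and Normal 2 were more than 2 times as high as any Nampt+ sample, whereas Normal 3 lay within the Nampt+ range. The log2 fold difference was -1.58 (SE 0.43, adjusted p = 1.00 in edgeR). It ranged from -1.98 to -1.21 over the 7 leave-one-out fits and was called in each, but it was -0.09 and not called without Normal 1 and Normal 2. The Nampt++ values, 19.6, 39.7, 50.8 and 49.4, overlapped with the controls. Fc receptors and complement genes had a median log2 fold difference of 0.28 and 0 of 11 called by edgeR. Fcer1g, the signalling chain of several Fc receptors, was at 549, 777 and 413 in the controls and 611, 831, 624 and 893 in the Nampt+ samples.

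Egr1, an immediate early gene and transcription factor (ENSRNOG00000019422, chr18:27657628-27661429), had the lowest log2 fold difference among the 13 called genes whose mean FPKM reached 10. Its FPKM was 561, 834 and 99.4 in the controls and 161, 103, 139.7 and 119 in the Nampt+ samples. Only Normal 1 and Normal 2 were high, and Normal 3 lay below every Nampt+ sample. The log2 fold difference of -2.06 (SE 0.70, adjusted p = 1.00 in edgeR) became -1.22 and was not called without Normal 2, and it turned to 0.81 without Normal 1 and Normal 2. The 4 Nampt++ samples were at 56.5 to 136. Egr1 is a classic target of serum response factor, which binds CArG boxes. The sequence before its start is shown because Egr1 alone of 28 immediate early genes was called (3.57%, against 0.497% of all tested genes). In RefSeq's GRCr8 assembly the 250 bases before the annotated start lie at chr18:26736828-26737077 on the plus strand. The capitals mark the 2 CArG boxes, at 105 to 96 and 83 to 74 bases before the start. A match to this motif on one strand is also a match on the other.
Egr1 upstream: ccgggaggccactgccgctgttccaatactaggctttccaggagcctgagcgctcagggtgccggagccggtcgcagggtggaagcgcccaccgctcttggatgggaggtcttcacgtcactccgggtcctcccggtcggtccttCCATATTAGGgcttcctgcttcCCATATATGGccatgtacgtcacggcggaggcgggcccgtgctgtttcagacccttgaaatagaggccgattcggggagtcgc
Of 33469 windows of this length, 1.5% held a CArG box and 7 held more than 1. Of the 28 immediate early genes, 19 were matched by symbol in these windows and 5 held a box. The 4 besides Egr1 were not called, with log2 fold differences of -0.01 for Dusp5, 0.18 for Egr2, -0.14 for Klf6 and -0.57 for Zfp36. Zfp36, which encodes a protein that destabilizes cytokine mRNAs, was at 1023, 929.7 and 209.6 in the controls and 513, 499.8, 257 and 678 in the Nampt+ samples. Normal 1 and Normal 2 were highest here as well, and without them the log2 fold difference was 1.69 and not called. Fos, a subunit of the AP-1 factor, was at 279.7, 179 and 49.2 in the controls and 273, 82.8, 88.8 and 203 in the Nampt+ samples, and these values overlapped widely. The median of the 28 genes was -0.12, ranging from -0.41 to 0.11 with single samples removed.

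Genes of cytotoxic lymphocytes had negative differences, with Normal 1 standing out. Of 11 tested NK and cytotoxic markers, 2 were called lower (18.2%, against 0.284% of all tested genes), 0 higher and 9 not. Log2 fold differences were negative in 10 of the 11. With single samples left out, 0 to 3 of these markers were called. Their median of -0.64 ranged from -0.91 to 0.04 with single samples removed. Gzma, the gene of granzyme A, had an FPKM of 141, 41.2 and 20.1 in the controls and 20.4, 11.9, 36.7 and 20.3 in the Nampt+ samples. Its log2 fold difference of -1.68 (SE 0.61) was -0.65 without Normal 1, and 0.47 without Normal 1 and Normal 2. It was not called without Normal 1, Nampt+ 1, Nampt+ 2 or Nampt+ 4. Klri2, a receptor of the killer lectin-like family, was at 7.19, 2.6 and 1.57 in the controls and 0.297, 0.489, 2.74 and 0.507 in the Nampt+ samples. With a log2 fold difference of -2.01, and of -1.24 without Normal 1, it was not called without Normal 1, Normal 2, Nampt+ 1, Nampt+ 2 or Nampt+ 4. Klrc3, a related receptor that was not on the marker list, was called lower as well, at 3.25, 0.953 and 1.21 in the controls and 0.882, 0.373, 1.01 and 0.596 in the Nampt+ samples (log2 fold difference -1.35, below the filter without Normal 1). Prf1, the pore-forming perforin, was at 74.7, 21.5 and 33.1 in the controls and 39.1, 7.12, 39.8 and 23.4 in the Nampt+ samples (log2 fold difference -0.75, and -0.08 without Normal 1, not called). Ncr1, an activating receptor of NK cells, was at 11.6, 2.77 and 1.91 in the controls and 3.95, 1.18, 2.43 and 4.45 in the Nampt+ samples (log2 fold difference -0.94, and 0.19 without Normal 1, not called). The summed FPKM of the 11 markers was 825, 293 and 311 in the controls and 423, 125, 439.8 and 312 in the Nampt+ samples. Normal 1 was thus highest and Nampt+ 2 lowest. Normal 2 and Normal 3 lay below Nampt+ 1, Nampt+ 3 and Nampt+ 4, though Normal 3 was close to Nampt+ 4. Ifng, a cytokine of NK and Th1 cells, was also highest in Normal 1, at 16.1, 3.14 and 0.731 in the controls and 3.62, 0.834, 1.67 and 1.63 in the Nampt+ samples. Its log2 fold difference of -1.84 did not pass the test and was -0.26 without Normal 1.

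Apoe, a lipoprotein component made by macrophages among other cells, was at 51.8, 7.07 and 10.5 in the controls and 9.24, 3.57, 9.78 and 5.44 in the Nampt+ samples. Its log2 fold difference of -1.74 was -0.33 without Normal 1, and the call was lost without Normal 1, Nampt+ 2 or Nampt+ 4. Of 23 tested genes of cholesterol and lipoprotein handling only Apoe was called (4.35%, against 0.497% of all tested genes), and the median was 0.07. RGD1562667, described as like a leukocyte mono-Ig-like receptor, was at 27.4, 2.9 and 9.25 in the controls and 5.76, 1.89, 3.35 and 5.69 in the Nampt+ samples. Here too Normal 1 was highest, and the log2 fold difference of -1.64 was -0.43 without it, with the call lost without Normal 1, Nampt+ 2, Nampt+ 3 or Nampt+ 4. Ccl17, a chemokine that draws Th2 cells, did not overlap between the groups, at 2.16, 1.43 and 3.19 in the controls and 0.339, 0.792, 0.567 and 1.3 in the Nampt+ samples. With a log2 fold difference of -1.40 it was not called without Normal 1, Normal 2, Normal 3, Nampt+ 1 or Nampt+ 3, and the Nampt++ samples ranged from 0 to 3.67. Hmgb1, a chromatin protein that acts as an alarm signal outside the cell and has many copies in mammalian genomes, was at 5.05, 2.4 and 16.2 in the controls and 4.46, 1.7, 3.08 and 3.28 in the Nampt+ samples. Its log2 fold difference of -1.16 was -0.38 without Normal 3, and the call was lost without Normal 3, Nampt+ 2, Nampt+ 3 or Nampt+ 4. Hes5, a repressor induced by Notch, was at 2.01, 2.31 and 5.38 in the controls and 1.81, 0.435, 2.07 and 0.845 in the Nampt+ samples (log2 fold difference -1.31, not called without Normal 3, Nampt+ 2 or Nampt+ 4), also highest in Normal 3. LOC100910934, described as like interferon-inducible GTPase 1, was at 4.71, 2.15 and 3.8 in the controls and 2.43, 0.223, 0.288 and 0.153 in the Nampt+ samples (log2 fold difference -2.18, not called without Normal 1, Normal 2, Normal 3, Nampt+ 2, Nampt+ 3 or Nampt+ 4), and Nampt+ 1 lay within the control range.

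Apart from Ighg1, called genes that were higher in Nampt+ samples were mostly of low level. Grb7, an adaptor that binds receptor tyrosine kinases (ENSRNOG00000006990, chr10:86399827-86409348), was at 0.405, 0.337 and 1.74 in the controls and 1.97, 3.04, 7.25 and 2.39 in the Nampt+ samples. The groups did not overlap, but Normal 3 was close to Nampt+ 1. The log2 fold difference of 2.35 (SE 0.64) was called in 7 of 7 leave-one-out fits, and it was 1.47 and not called without Normal 1 and Normal 2. RGD1561143, described as like the cell surface receptor FDFACT, also did not overlap, at 3.23, 5.35 and 4.37 in the controls and 5.69, 6.83, 11.5 and 11.6 in the Nampt+ samples (log2 fold difference 1.01, not called without Normal 1, Normal 3, Nampt+ 2, Nampt+ 3 or Nampt+ 4). Its Nampt++ values ranged from 6.21 to 25.5. AABR07030590, described as mast cell immunoglobulin-like receptor 1, was at 2.45, 2.17 and 4.3 in the controls and 3.18, 3.09, 11.4 and 12.3 in the Nampt+ samples (log2 fold difference 1.3, not called without Normal 1 or Nampt+ 4), with Nampt+ 3 and Nampt+ 4 alone above the controls. Letm2, a mitochondrial protein, was at 0.983, 1.04 and 1.13 in the controls and 1.86, 1.9, 3.86 and 1.64 in the Nampt+ samples (log2 fold difference 1.17, not called without Normal 1, Normal 3 or Nampt+ 3), again without overlap. Arhgef10 was at 0.166, 0.0879 and 1.21 in the controls and 1.49, 0.608, 1.96 and 2.71 in the Nampt+ samples (log2 fold difference 1.95, not called without Normal 1, Normal 2 or Nampt+ 3, and below the filter without Nampt+ 4), with Normal 3 within the Nampt+ range. LOC100912564, described as like histone H4, was at 2.3, 0.948 and 1.7 in the controls and 2.55, 2.25, 3.03 and 7.74 in the Nampt+ samples (log2 fold difference 1.23, not called without Normal 2, Normal 3, Nampt+ 2 or Nampt+ 4), with Nampt+ 4 highest.

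**Figure D2:**
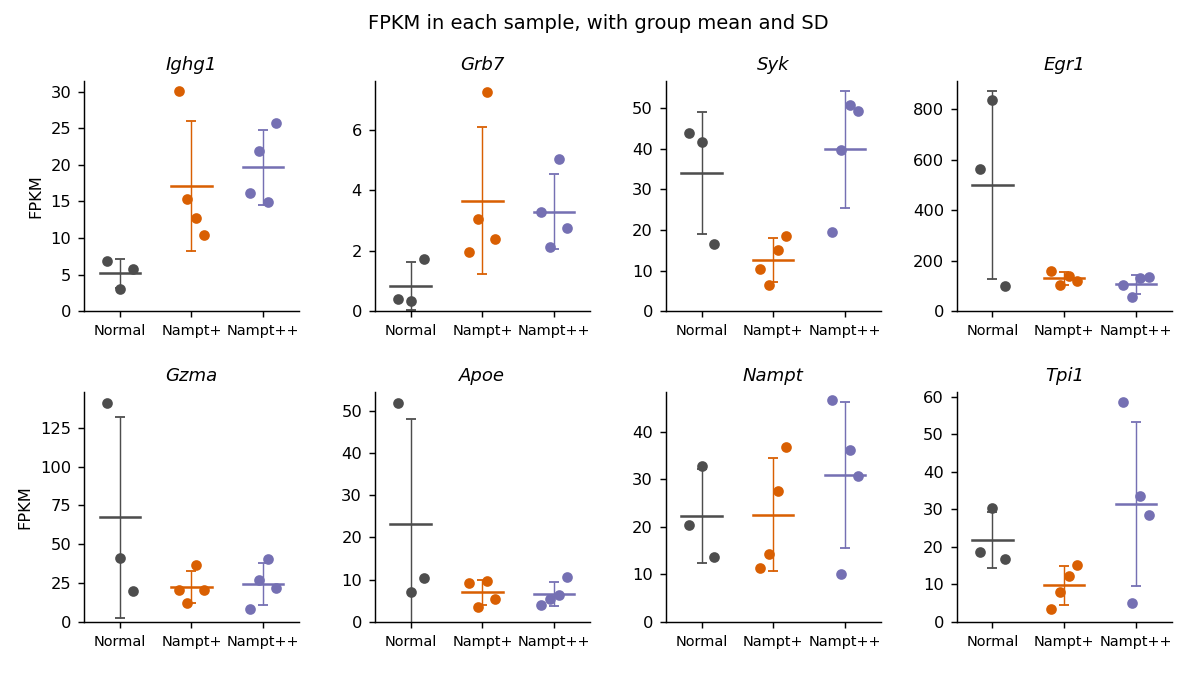
FPKM (vertical axes, from 0) of 8 genes in each sample of the Normal (n = 3), Nampt+ (n = 4) and Nampt++ (n = 4) groups. Points are samples in the order of their numbers, horizontal lines are group means and bars are SD, clipped at 0. Ighg1 is higher in both CIA groups, Egr1 is high in Normal 1 and Normal 2 alone, Gzma and Apoe are high in Normal 1, and Nampt overlaps in all groups.

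The 4 other genes called without overlap at a mean FPKM of at least 10 were lower, and 3 of them are rows of ribosomal protein genes or their pseudogenes. The Rpl30 row (ENSRNOG00000032825, chr10:38024477-38024937) was at 647, 474 and 331 in the controls and 189.5, 127, 237 and 198 in the Nampt+ samples. All Nampt+ samples lay below all controls, and the log2 fold difference was -1.40 (SE 0.31, adjusted p = 1.00 in edgeR). The Rpl9 row, on chromosome 3, was at 149, 95.5 and 96.1 in the controls and 48.5, 28.3, 77.3 and 29.8 in the Nampt+ samples (log2 fold difference -1.33). RGD1565131, a processed pseudogene like Rpl15 on chromosome 12, was at 24.9, 28.1 and 23.4 in the controls and 9.07, 2.5, 14 and 11 in the Nampt+ samples (log2 fold difference -1.64). Without Normal 1 and Normal 2 these 2 rows were at -0.72 and -1.12 and were not called. Rpl30 and Rpl9 were the only rows called of 101 tested rows with symbols like those of ribosomal protein genes (1.98%, against 0.497% of all tested genes), and the median was -0.10. These symbols also took in other genes, such as the kinase genes Rps6ka1 and Rps6kb1. Rps6, a protein of the small subunit, was at 1101, 815 and 1655 in the controls and 1184, 544, 1404 and 1168 in the Nampt+ samples.

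Rows of like description, called copies here, were added to the rows of these genes, an analysis chosen after the values were seen. The sequences of these rows were not compared. For Rpl30 with its 6 copies the sum was 1867, 1400 and 3039 in the controls and 1913, 1092, 2211 and 1824 in the Nampt+ samples, a difference of -0.23 in mean log2(FPKM + 1) (two-sided exact permutation test, p = 0.543). What differed was the share of the sum that stood on the Rpl30 row. It was 34.7%, 33.8% and 10.9% in Normal 1 to 3, and 9.91%, 11.7%, 10.7% and 10.8% in Nampt+ 1 to 4. Normal 3 had the share of the CIA samples, which ranged from 9.91% to 11.7% in all 9 samples other than Normal 1 and Normal 2, Nampt++ samples included. Without Normal 1 and Normal 2 the log2 fold difference of the Rpl30 row was -0.45 and not called. LOC100362027, the copy with the highest FPKM, was at 1216, 924 and 2700 in the controls and 1719, 962, 1969 and 1622 in the Nampt+ samples (log2 fold difference 0.06). Of the 20 protein-coding genes next to it in the table, 16 are also next to Rpl30 in GRCr8, against 0 for the row named Rpl30. The summed difference was -0.24 for Rpl9 with its 4 copies (exact permutation test, p = 0.571), and -0.22 for RGD1565131 with Rpl15 and another pseudogene (exact permutation test, p = 0.714). In the 7 samples Rpl9 held 4.16% to 19.3% of its sum and RGD1565131 at most 6.55%, so these sums cannot test their calls. Of the protein-coding genes next to LOC100360449, a copy of Rpl9, 14 are also next to Rpl9 in GRCr8. For the row named Rpl9 and for the copy LOC100364457 this number was 0. The fifth gene without overlap, AC130253, is a miRNA row inside LOC103694903 on the opposite strand. It was at 21.8, 15.6 and 24 in the controls and 12.8, 5.93, 10.6 and 8.85 in the Nampt+ samples (log2 fold difference -1.06, not called without Normal 3 or Nampt+ 2), beside a mean FPKM of 86.7 for LOC103694903. The libraries marked the strand, but whether counting used it is not stated, so reads of these 2 rows may be mixed.

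Sums were made for 16 of the 56 called genes, those for which rows of like description were found. Rows of immunoglobulins and of histone H4 were not summed. In all 16 the summed FPKM overlapped between the groups, no summed difference was over 1 on the log2 scale, and exact permutation p values ran from 0.2 to 0.943. A sum cannot test a call whose row is a small part of it. In the 7 samples Hba-a3 held at most 1.67% of its sum, LOC103694893 3.91%, RGD1565131 6.55%, LOC100911361 10.6% and Rpl9 19.3%. Rmdn3, a protein that tethers mitochondria to the endoplasmic reticulum, was called higher without overlap, at 2.33, 1.31 and 3.45 in the controls and 6.62, 3.49, 7.14 and 3.82 in the Nampt+ samples (log2 fold difference 1.25, not called without Normal 2 or Nampt+ 3). Its copy LOC100911313 was at 5.16, 4.03 and 7.7 in the controls and 3.6, 1.61, 3.73 and 3.93 in the Nampt+ samples, without overlap in the other direction. Their sum was 7.49, 5.34 and 11.1 in the controls and 10.2, 5.1, 10.9 and 7.76 in the Nampt+ samples. LOC103689986, described as protein YIF1B and the gene with the smallest adjusted p, was at 2.79, 1.26 and 3.71 in the controls and at 0 in all 4 Nampt+ samples. The gene was below the filter in 2 of the 7 leave-one-out fits and called in the other 5. It was at least 131-fold lower if 3 counts per library are taken as the limit of detection. Of the Nampt++ samples 2 also had 0, and the others 2.18 and 2.52. Wherever LOC103689986 was above 0, it held 45.1% to 46.5% of its sum with Yif1b. That sum was 6.18, 2.8 and 8.16 in the controls and 3.25, 1.19, 4.31 and 4.69 in the Nampt+ samples (difference -0.62, exact permutation test, p = 0.286). LOC103693563, a copy of the esterase gene Abhd10, was at 0 in the 3 controls and at 5.66, 3.22, 0 and 5.66 in the Nampt+ samples. The sum of both was 5.56, 4.7 and 8.51 in the controls and 10.4, 6.27, 5.55 and 10.8 in the Nampt+ samples. Zmiz2, Spsb2 and LOC103692167, a copy of Pcgf1, were likewise at or near 0 in all controls and at 0 in 1 or 2 of the Nampt+ samples. LOC100912282, a copy of Calcoco1, was above 0 in Normal 3 alone, and LOC103694893, a copy of the protease inhibitor gene Slpi, was above 0.1 in Nampt+ 1 and Nampt+ 4 alone among the 7 samples. Hmgb1 with its 2 copies summed to 6.79, 4.25 and 17.9 in the controls and 6.13, 2.84, 4.39 and 4.72 in the Nampt+ samples (difference -0.77, exact permutation test, p = 0.2).

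**Figure D3:**
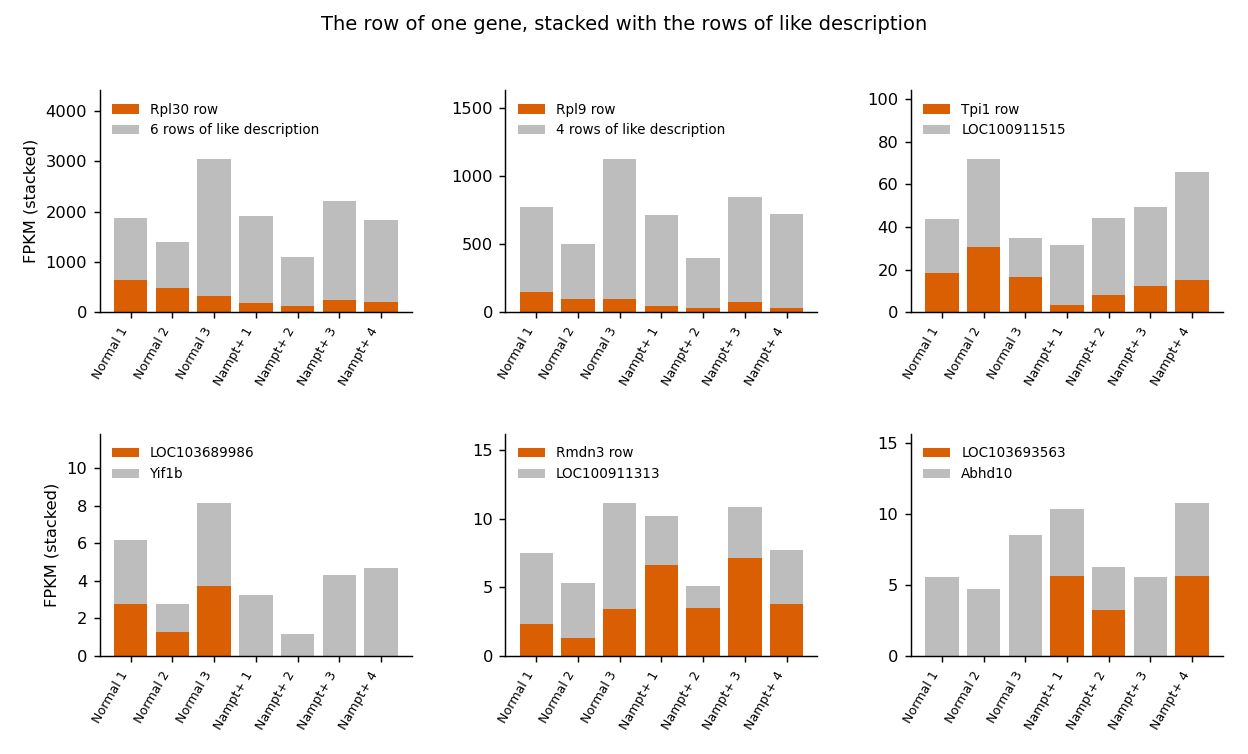
FPKM in each control and Nampt+ sample of 6 gene rows (orange), stacked on the rows of like description (grey), with vertical axes from 0. The orange part of Rpl30 is large in Normal 1 and Normal 2, that of LOC103689986 is missing in all Nampt+ samples and that of LOC103693563 in all controls, while the full height of the bars overlaps between the groups.

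Tpi1, at chr4:157328379-157331905, was another gene whose copy bears on the comparison. Its FPKM was 18.6, 30.4 and 16.6 in the controls and 3.32, 8.05, 12.2 and 15.2 in the Nampt+ samples, and no values overlapped. The means were 21.9 ± 7.46 (SD, n = 3) and 9.71 ± 5.18 (SD, n = 4), a difference of -1.21 in mean log2(FPKM + 1) (two-sided exact permutation test, p = 0.0571, where 0.0286 is the smallest p that 3 against 4 samples can give). The log2 fold difference of edgeR was -1.23, with an unadjusted p just above the threshold, so it was not called. LOC100911515 on chromosome 9, described as like triosephosphate isomerase, was at 25, 41.3 and 18 in the controls and 28.3, 36.3, 36.9 and 50.4 in the Nampt+ samples (exact permutation test, p = 0.229). Added together, both rows gave 43.6, 71.8 and 34.6 in the controls and 31.7, 44.3, 49.2 and 65.6 in the Nampt+ samples. These sums overlapped and differed by -0.05 (exact permutation test, p = 0.857). Tpi1 held 42.6%, 42.4% and 48.1% of the sum in the controls, and 10.5%, 18.2%, 24.9% and 23.2% in the Nampt+ samples. In the Nampt++ samples it held 41.4%, 17%, 42.8% and 43.8%. Over 21 tested genes of glycolysis and glucose uptake the median log2 fold difference was 0.07, with 0 called by edgeR and 0 at an unadjusted p under 0.05. Pkm, a pyruvate kinase, was at 300.0, 517 and 319 in the controls and 426, 410.4, 378 and 484 in the Nampt+ samples, and Slc16a3, a lactate exporter, at 263, 338 and 114 in the controls and 201, 268, 345 and 424 in the Nampt+ samples.

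Nampt itself (ENSRNOG00000009754, chr6:52122085-52156472) was at 20.3, 32.9 and 13.5 in the controls and 11.4, 14.3, 27.5 and 36.9 in the Nampt+ samples. The means were 22.2 ± 9.8 (SD, n = 3) and 22.5 ± 11.8 (SD, n = 4), and the difference of -0.04 in mean log2(FPKM + 1) was smaller than the spread (exact permutation test, p = 0.971). As Nampt+ samples had been assigned by PCR for this level of Nampt, the value describes the choice of samples. Of 25 tested genes of the study's PCR panels, many of which it had chosen from these samples, only Syk was called, and it was lower. That is 4.0%, against 0.497% of all tested genes. The other 24 were not called, and the median of the 25 genes was -0.14. In several of them Normal 2 alone was high. Thbs1, the matrix protein thrombospondin 1, was at 7.73, 88.2 and 11.9 in the controls and 16.1, 7.58, 14.2 and 20.6 in the Nampt+ samples. Its log2 fold difference of -1.60 was 0.75 without Normal 2. Hmox1, which breaks down haem, was at 8.97, 45.3 and 4.66 in the controls and 10.2, 7.03, 11.2 and 7.44 in the Nampt+ samples, with log2 fold differences of -1.34 and, without Normal 2, 0.56. Cebpd, a transcription factor of the acute phase, was at 10.5, 39.5 and 7.89 in the controls and 6.19, 12.9, 3.98 and 14.8 in the Nampt+ samples (log2 fold difference -1.03, and 0.40 without Normal 2). Il1b, the gene of interleukin 1 beta, was at 1906, 3810 and 658 in the controls and 1124, 2871, 1115 and 2662 in the Nampt+ samples (log2 fold difference -0.08). Il10, which limits inflammation, was at 3.53, 12.1 and 4.96 in the controls and 9.24, 2.82, 8.11 and 3.97 in the Nampt+ samples (log2 fold difference -0.37). Il17a and Pparg stayed below the filter, at no more than 0.787 and 0.964 in any of the 7 samples. Sirt1 and iNos, which the study also measured by PCR, were not on the list of PCR genes used here.

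Among 41 gene lists with a tested gene, not counting antigen binding, 30 held no called gene in edgeR, 11 held a gene called lower and 0 a gene called higher. The 11 lists are not independent, since Syk recurs in several of them and Apoe in the cholesterol lists. The antigen binding list, described above with Ighg1, held genes called in both directions. The median log2 fold difference was within 0.2 of 0 in 33 of the 41, beside -0.0027 over all tested genes. Of 9 KEGG pathways, several of which the study had named from these samples and which are therefore no independent evidence of a direction, 5 held called genes. Beside the 0.497% called of all tested genes, PI3K-Akt signaling and osteoclast differentiation each held Syk (1 of 166, 0.602%, and 1 of 107, 0.935%), IL-17 signaling held Ccl17 (1 of 65, 1.54%), natural killer cell mediated cytotoxicity Syk and Klrc3 (2 of 98, 2.04%) and cholesterol metabolism Apoe (1 of 27, 3.70%). Each of these shares rests on 1 or 2 genes, and those of PI3K-Akt signaling and osteoclast differentiation were near the background. TGF-beta signaling, Th17 cell differentiation, HIF-1 signaling and ABC transporters, with 47, 90, 77 and 19 tested genes, held 0 called in edgeR and 0 at an unadjusted p under 0.05. The medians of the 9 pathways lay between -0.03 and 0.05.

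Inflammatory cytokines, chemokines and NF-kappa B feedback genes had a median of -0.27, with 0 of 26 called by edgeR and 0 at an unadjusted p under 0.05. The lowest was Cxcl3, a chemokine for neutrophils, at 3.83, 42.2 and 7.24 in the controls and 9.31, 2.74, 1.85 and 4.36 in the Nampt+ samples. Its log2 fold difference of -2.18 was -0.02 without Normal 2. Nfkbia, the inhibitor of NF-kappa B that the factor itself induces, was at 1460, 2477 and 489 in the controls and 653, 1725, 942 and 1922 in the Nampt+ samples, with Normal 2 highest and Normal 3 lowest. Interferon-stimulated genes had a median of -0.12, with 0 of 26 called by edgeR and 1 at an unadjusted p under 0.05, and log2 fold differences from -0.96 to 1.66. The lowest was Rtp4, a chaperone of receptors induced by interferon, without overlap at 11.8, 7.01 and 6.91 in the controls and 4.08, 2.52, 6.71 and 4.92 in the Nampt+ samples but short of the fold threshold. The highest was Ifit1, an antiviral RNA-binding protein, at 10.9, 21.3 and 24.6 in the controls and 32.8, 73.5, 11.1 and 89.98 in the Nampt+ samples, which overlapped. Isg15, a ubiquitin-like modifier, was at 349, 297 and 54.3 in the controls and 63.2, 222, 134 and 372 in the Nampt+ samples, so that Normal 3 and Nampt+ 1 were low together. No gene of antigen presentation was called. Cd74, the invariant chain of MHC class II, was at 2007, 1709 and 5616 in the controls and 2847, 1638, 3781 and 2020 in the Nampt+ samples, and B2m, the light chain of MHC class I, at 2776, 3325 and 2820 in the controls and 3977, 2873, 2351 and 2888 in the Nampt+ samples. MHC class II genes (median -0.03 over 11), MHC class I and peptide loading genes (-0.05 over 17), Toll-like receptors and adaptors (0.18 over 14), chemokine receptors (0.16 over 10), adhesion molecules (0.07 over 12), heat shock proteins (-0.07 over 19), the proteasome (-0.07 over 43) and proliferation genes (0.11 over 17) each had 0 called genes in edgeR and 0 at an unadjusted p under 0.05. Genes that salvage or consume NAD had a median of 0.12 over 13, with 0 called by edgeR and 0 at an unadjusted p under 0.05.

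**Figure D4:**
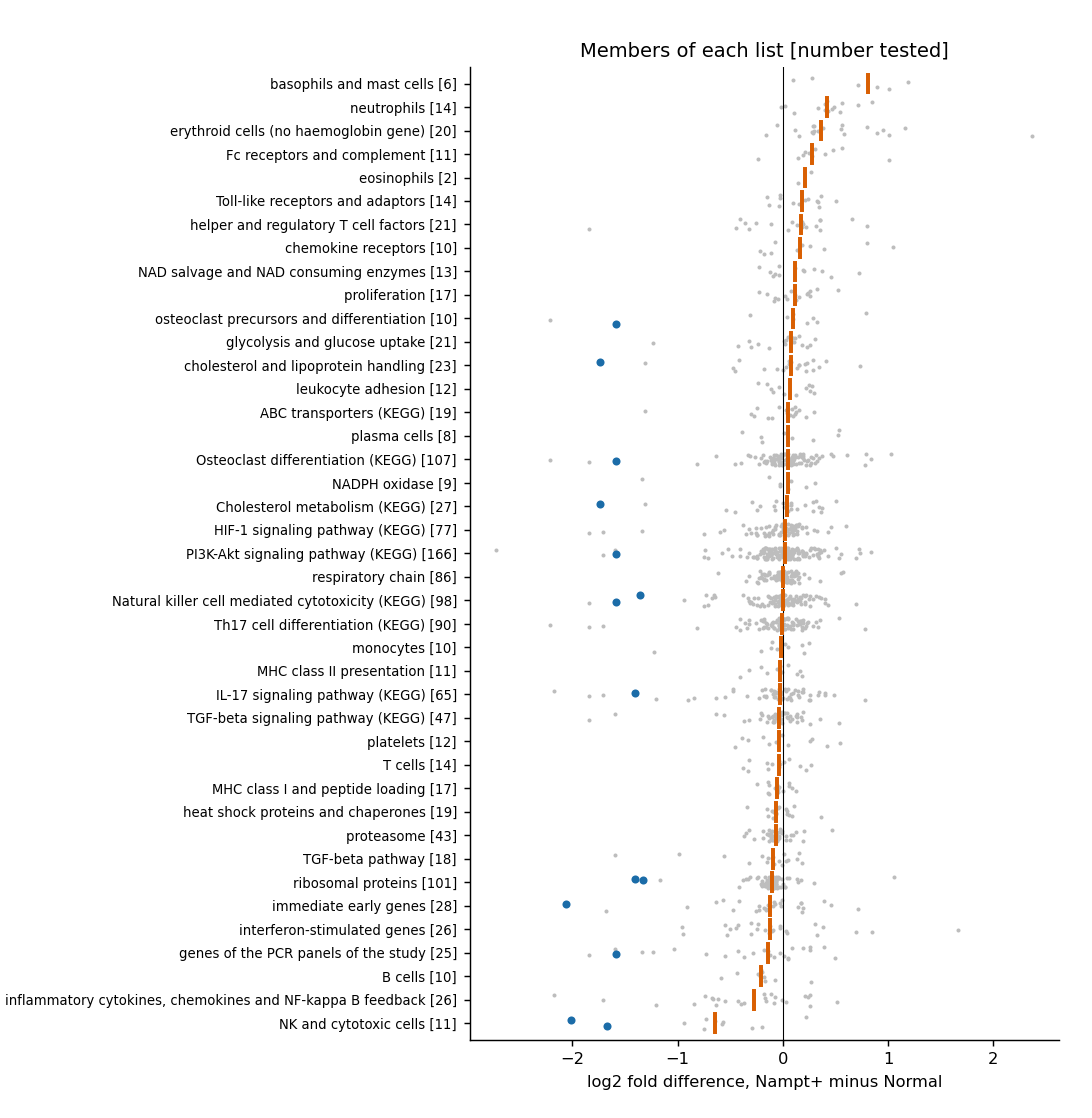
Log2 fold difference, Nampt+ minus Normal (horizontal axis), of the tested members of each list (vertical axis, number tested in brackets). Grey dots are members not called, blue dots are called members and orange bars are list medians. Most medians lie near 0, NK and cytotoxic markers lie lowest at -0.64 and basophil and mast cell markers highest at 0.80.

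Marker lists of blood cell types ranged widely inside both groups. Summed FPKM of 16 neutrophil markers was 7894, 15411 and 2411 in the controls and 4240, 16810, 6038 and 15888 in the Nampt+ samples. Both groups held samples of high and of low neutrophil signal, and the median log2 fold difference of 0.42 over 14 tested markers ranged from -0.18 to 1.38 with single samples removed. S100a8, a calcium-binding protein abundant in neutrophils, was at 1892, 3532 and 638 in the controls and 1116, 4321, 1341 and 3876 in the Nampt+ samples. Monocyte markers summed to 5669, 10651 and 4232 in the controls and 5474, 6492, 7768 and 13780 in the Nampt+ samples. Lyz2, a lysozyme gene, made up most of this sum. T cell markers summed to 1418, 599.6 and 1514 in the controls and 1338, 426, 1386 and 1367 in the Nampt+ samples. Normal 2 and Nampt+ 2 were low and the other 5 samples lay close together. Cd3g, a chain of the T cell receptor complex, was at 284, 123 and 345 in the controls and 279, 88.8, 278 and 278 in the Nampt+ samples. Platelet markers summed to 3835, 6443 and 7220 in the controls and 16459, 7323, 1897 and 3839 in the Nampt+ samples, with Nampt+ 1 highest. Basophil and mast cell markers had a median of 0.80 over 6 genes, the highest of all lists, with 0 called by edgeR, and summed to 74.7, 36.5 and 27.1 in the controls and 31.8, 17.2, 99.3 and 189 in the Nampt+ samples. Nampt+ 3 and Nampt+ 4 were above all controls, and Nampt+ 1 and Nampt+ 2 were not. Hdc, which makes histamine, was at 35, 19.1 and 15.5 in the controls and 17.4, 5.59, 65.7 and 115 in the Nampt+ samples. Ms4a2, a chain of the high-affinity IgE receptor, was at 1.84, 0.268 and 0.72 in the controls and 1.17, 0.421, 2.64 and 5.12 in the Nampt+ samples. AABR07030590, the mast cell receptor-like gene called higher, was high in the same 2 samples, and the part of basophils or mast cells in its level was not tested.

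**Figure D5:**
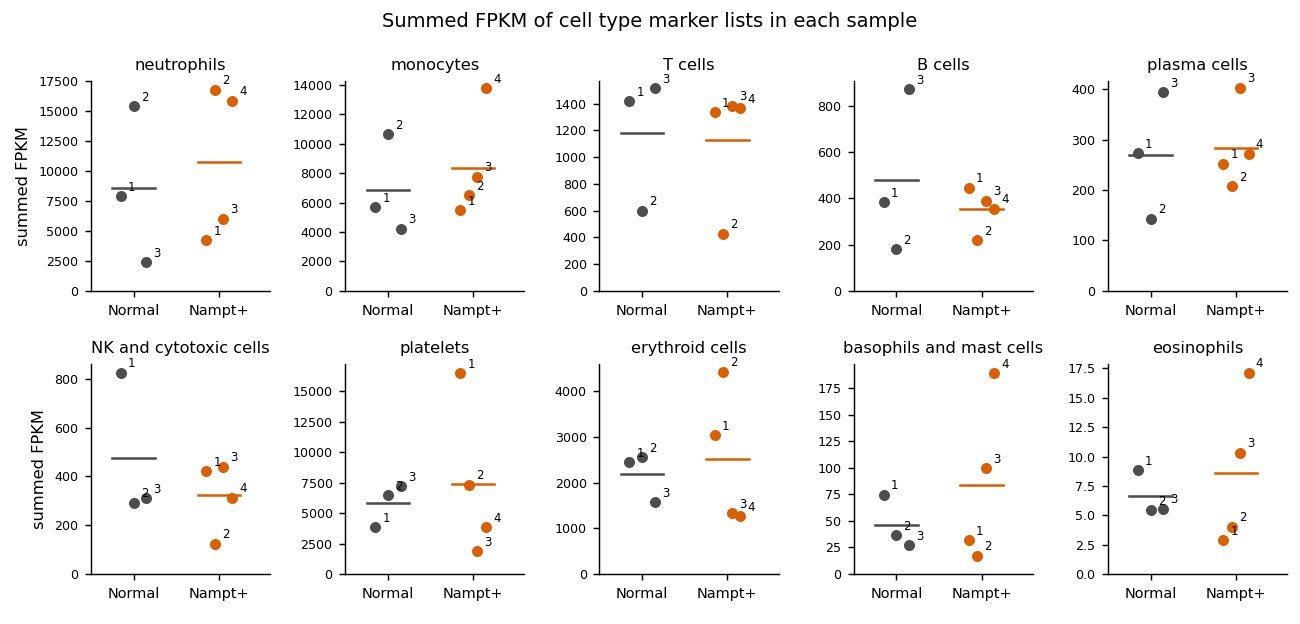
Summed FPKM (vertical axes, from 0) of 10 marker lists in the Normal and Nampt+ samples, with the number of the sample beside each point and horizontal lines at the group means. The groups overlap in every list, Nampt+ 2 and Normal 2 are low in T cell markers and Normal 1 is high in NK and cytotoxic markers.

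Haemoglobin genes stood on 11 rows, of which 8 were tested and 1 was called, beside 0.497% called of all tested genes. Hbb, the adult beta chain, was at 75176, 68367 and 39810 in the controls and 55958, 111919, 43922 and 35792 in the Nampt+ samples (log2 fold difference 0.27, not called). Erythroid markers other than haemoglobin summed to 2445, 2552 and 1576 in the controls and 3039, 4427, 1329 and 1271 in the Nampt+ samples. As for Hbb, Nampt+ 2 was highest and Nampt+ 4 lowest. Hba-a3, an adult alpha chain, was called higher, at 58.9, 66.2 and 1550 in the controls and 5024, 7357, 1737 and 1332 in the Nampt+ samples (log2 fold difference 3.46, not called without Normal 1, Normal 2, Nampt+ 1 or Nampt+ 2, and 2.04 and not called without both Normal 1 and Normal 2), where Normal 1 and Normal 2 were low. Its share of the 3 alpha rows was 0.0175% and 0.0187% in Normal 1 and Normal 2 and 0.758% to 1.67% in the other 9 samples. The alpha rows summed to 337471, 353356 and 177575 in the controls and 300033, 471142, 208342 and 161286 in the Nampt+ samples, which overlap. With all haemoglobin rows left out before normalization, 58 of 11261 genes were called (0.515%), 23 higher and 35 lower, and 55 of them were called with the haemoglobin rows as well. An adjusted p under 0.05 was again reached by 0 genes in edgeR. No fitted difference moved by more than 0.026 on the log2 scale. TMM already adjusts for such rows, its factor for Nampt+ 2 being 0.584 with and 0.767 without them, so this fit could hardly move. The deposited FPKM values were not recomputed, so the fold of each call and the values per sample remain scaled with haemoglobin.

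Rows at 0 in every sample of one group and above 0 in every sample of the other numbered 35, with 24 at 0 in the Nampt+ samples and 11 at 0 in the controls. LOC103689986 was the only one above the filter. Next by mean FPKM came LOC688340, at 0 in the controls and 1.15, 0.384, 1.06 and 0.588 in the Nampt+ samples, and Mir101a, at 0.787, 0.336 and 1.25 in the controls and 0 in the Nampt+ samples. AABR07054565 and RF00026 were above 0 in Nampt+ samples only, and a snoRNA row of the family RF00428 in controls only. Of the 56 called genes, 14 were not protein-coding, among them 5 miRNA and 3 snoRNA rows, whose mature RNAs carry no poly(A) tail and which poly(A) selection can only read in part. The share of such rows among all tested genes is not given here, so whether they were called more often than others cannot be judged. AABR07063462, a miRNA row called in all 7 leave-one-out fits, was at 0.831, 0.396 and 0.304 in the controls and 5.09, 2.2, 14 and 10.3 in the Nampt+ samples (log2 fold difference 3.44), and at 7.87, 0.251, 0.289 and 12.4 in the Nampt++ samples. AC112062, a miRNA row with a mean FPKM over 10, was at 3.86, 1.01 and 1.69 in the controls and 3.06, 29.2, 71.5 and 3.26 in the Nampt+ samples (log2 fold difference 3.66, not called without Normal 2, Normal 3 or Nampt+ 3), with Nampt+ 2 and Nampt+ 3 alone above the controls. Some calls rested on 1 sample. Rbp7, a retinol-binding protein, was at 30.7 in Normal 1 and at most 0.274 in the other 6 samples. Thrsp, a regulator of fat synthesis, was at 8.28 in Normal 1 and at most 0.0887 in the others. Without Normal 1 both genes lay below the filter. In all 7 leave-one-out fits 10 of the 56 genes were called, namely Ighg1, Syk, Grb7, Rpl30, Rpl9, RGD1565131, LOC103693563, Zmiz2, AABR07063462 and RF00156. Among genes that were not called, Cln8, a protein of the endoplasmic reticulum, had an adjusted p under 0.05 in DESeq2, at 3.59, 2.8 and 5.89 in the controls and 7.91, 4.42, 9.03 and 8.36 in the Nampt+ samples (log2 fold difference 0.91 in edgeR).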

How the data were processed

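RNA of WBCs was sequenced in 11 samples, 7 of them used here. Per the study's methods, poly(A) RNA was made into libraries that marked the strand and read in pairs, and StringTie 1.3.4 and cutadapt 1.9 were used. The submitters' processing notes also name HISAT2 2.0.4. The counts are whole reads per gene that the authors deposited without normalization. The FPKM values were computed by the authors and deposited in the same table, with 0.0001 standing for 0. The genome build and the treatment of reads that match several genes are not given in the sources used here. The authors' table holds 0 columns of other samples.

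The 4 Nampt+ samples were compared with the 3 controls by edgeR's quasi-likelihood test (version 4.0.16, R 4.3.3, TMM normalization, Benjamini-Hochberg adjustment) on the counts of genes whose FPKM averaged 1 or more. Single values were compared by exact permutation tests of mean log2(FPKM + 1) over 35 arrangements. DESeq2 1.42.0 and limma 3.58.1 were alternatives, as were another normalization, other filters, all 11 samples, a replicate block and single samples left out. Groups follow the labels of the samples.

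Genes were named if they were called at a mean FPKM of at least 10 without overlap between the groups, if they were called members of a list or its 2 most expressed, if they were in the study's PCR panels, or if they were haemoglobin rows or at 0 in one group alone. All other names, among them the remaining called genes, copies and the extremes of lists, were chosen after their values were seen. The comparison, its members and the lists were chosen with earlier results of these data known, and lists taken from KEGG or GO used the annotation in the table. Separate rats are taken as replicates, as the sample titles give them. Names of neighbouring genes and the sequence are from RefSeq's GRCr8 tables, and no position of the deposited table was converted.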

Additional observations from a re-analysis of the deposited data

Results flagged for a closer look

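Among the 4 Nampt+ samples, 1 value lay far from the other 3, by Dixon's test at the 95% level, in 7 of 122 sets of values examined. Chance gives this in about 1 of 20 sets, and no explanation was tested. Klri2, the killer lectin-like receptor gene, was at 2.74 FPKM in Nampt+ 3 and at 0.297 to 0.507 in the others, so that Nampt+ 3 alone reached the range of the controls. Letm2 was at 3.86 in Nampt+ 3 and 1.64 to 1.9 in the others. LOC100910934, the GTPase-like gene, was at 2.43 in Nampt+ 1 and 0.153 to 0.288 in the others. LOC100912564, like histone H4, was at 7.74 in Nampt+ 4 and 2.25 to 3.03 in the others. RF00156, a snoRNA row, was at 0.0103 in Nampt+ 2 and 5.76 to 6.55 in the others. The summed FPKM of T cell markers was 426 in Nampt+ 2 and 1338 to 1386 in the others. The summed FPKM of enzymes that salvage or consume NAD, Nampt among them, was 438 in Nampt+ 4 and 310 to 326 in the others.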

How the results depend on the processing

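Only 4 and 3 rats stand behind each value, and 43 of the 56 called genes had a mean FPKM under 10. Of the 56 genes called, 54 were called with upper quartile normalization, 47 in DESeq2, 39 in limma and 13 of 14 genes at a mean FPKM of at least 10. Without a filter 261 were called, 96 higher and 165 lower. Leaving out 1 sample gave 49 to 136 called genes, with 136 without Normal 2, 112 without Normal 3 and 98 without Nampt+ 1. Without Normal 1 and Normal 2, chosen after seeing the data, 312 were called, of which 13 were among the 56, Gzma turned to 0.47 and Egr1 to 0.81. Genes with an adjusted p under 0.05 numbered 0 in edgeR, 4 in DESeq2 (Cln8, Spsb2, LOC103692167 and LOC103689986), 2 in limma (AABR07063462 and LOC103689986), 1 without Normal 1, 1 without Normal 2 and 5 without both. DESeq2 called 38 genes higher and 35 lower, against 24 and 32 in edgeR.

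The difference of Nampt was not called in any fit and ranged from -0.34 to 0.27 with single samples left out, with 0.27 without Normal 2, 0.22 without Nampt+ 1 and 0.12 without Nampt+ 2. That of Tpi1 ranged from -1.46 to -0.83. Summed with their copies, Hba-a3 (-0.076) and LOC103692167 (-0.089) changed sign, though Hba-a3 held at most 1.67% of its sum. The replicate numbers are shared by controls and CIA rats but come from different animals. Deviations of samples of the same number correlated at 0.09, 0.54 and 0.22, and Normal 1 correlated most with Nampt+ 4, so the numbers were not taken as pairs. A fit with a replicate block called 60 genes, 32 higher and 28 lower, 32 of them among the 56, with Nampt at -0.22 and Tpi1 at -1.47, past the threshold. The cause of these changes was not tested.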

Other observations

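Some called genes belonged to no list. Of rows with a copy of like description, LOC100910732, described as like the kinase PAK 2, was at 4.74, 0.64 and 0.308 in the controls and 3.37, 10.9, 5.3 and 21.2 in the Nampt+ samples (log2 fold difference 2.52 in edgeR, and 2.16 and not called without Normal 2), and LOC100911361, described as like the splicing factor hnRNP A3, at 12, 6.75 and 19.3 in the controls and 5.05, 3.02, 8.45 and 5.55 in the Nampt+ samples. Dydc1 was at 4.68, 6.71 and 0.427 in the controls and 0, 0.61, 0.523 and 0.403 in the Nampt+ samples, and Normal 3 was as low as the Nampt+ samples. Its call was lost without Normal 1 or without Normal 2 (log2 fold differences of -3.30 and -2.45 in edgeR), and without both it lay below the filter. Ctdspl2, a phosphatase, was at 3.18, 1.16 and 5.22 in the controls and 1.18, 0.75, 1.74 and 1.36 in the Nampt+ samples (log2 fold difference -1.23 in edgeR), and its call was lost without Normal 3 alone. Zfp189, a zinc finger protein, was at 1.23, 1.39 and 3.25 in the controls and 1.31, 0.706, 0.92 and 0.83 in the Nampt+ samples, with Normal 3 highest. AABR07048992, a gene without description, was at 44.9, 10.2 and 23.2 in the controls and 14, 6.82, 17.4 and 11.2 in the Nampt+ samples. Normal 1 was highest, and the log2 fold difference of -1.05 was -0.36 and not called without Normal 1. Of the 7 leave-one-out fits, Zfp189 was called in 2, LOC100910732 in 3, Dydc1 in 3, AABR07048992 in 4 and LOC100911361 in 5.

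Summed neutrophil markers were lowest in Normal 3 and Nampt+ 1 among the 7 samples. S100a9, a partner of S100a8, was at 4912, 9788 and 1323 in the controls and 2364, 10491, 3410 and 9244 in the Nampt+ samples. Nfkbia and Isg15 were likewise lowest in these 2 samples, at 489 and 653 for Nfkbia, whereas Fos was at 49.2 in Normal 3 and 273 in Nampt+ 1. Sod2, the mitochondrial superoxide dismutase, was highest in Normal 2, at 301, 1019 and 285 in the controls and 360.2, 645, 396 and 523 in the Nampt+ samples.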
